A study of Mus musculus with 2 samples.

Results

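The genes described here are the R-spondin axis: the ligands Rspo2 and Rspo3, the receptors Lgr4, Lgr5 and Lgr6, and the ligases Rnf43 and Znrf3. They were chosen by symbol, and all 7 were found among the 33696 genes of the deposited matrices. R-spondins are secreted proteins that strengthen Wnt signalling. RNF43 and ZNRF3 are transmembrane ubiquitin ligases that remove Frizzled receptors from the cell surface, and an R-spondin held between an LGR receptor and 1 of these ligases clears the ligase, so that more Frizzled remains. Both ligases are themselves Wnt targets, which makes them negative feedback regulators. In the cochlea Lgr5 is best known as a marker of supporting cells that can divide or give rise to hair cells around birth.

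Nuclei came from mouse cochleae on postnatal day 7, from tissue labelled basement membranes of the cochlea with hair cells and supporting cells as its named cell types. The Serpine2 cOE library pooled 20 cochleae of genotype Lgr5EGFP-CreER/+,Serpine2loxp/loxp, and the control library pooled 19 cochleae of genotype Serpine2loxp/loxp. Both groups carried the Serpine2loxp/loxp alleles and received tamoxifen on postnatal day 1, so the controls differed by the lack of the Lgr5EGFP-CreER driver, and the tissue was snap-frozen. The series title names conditional overexpression of Serpine2, a secreted serine protease inhibitor, in the setting of hair cell regeneration from Lgr5+ progenitors. Because the driver allele sits in Lgr5, a difference in Lgr5 between libraries due to that allele and one due to Serpine2 cannot be told apart. With 1 pooled library per group there is no replicate check and no test. Each interval below covers counting error only, and animals within a pool cannot be separated.

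After filtering and removal of likely doublets 9777 cOE nuclei and 8250 control nuclei were kept, with 32275196 and 27064379 UMIs (unique molecular identifiers, each standing for 1 captured RNA molecule). Median depth was 2400 UMIs per nucleus in the cOE library and 2247.5 in the control library. The libraries shared 27 deposited barcodes. Clustering without the 7 genes gave 29 clusters, of which 19 were named from marker genes and 10 stayed unnamed and are called by a leading gene. The labels name only hair cells and supporting cells, but 3 clusters were mesenchymal-like and mesenchymal markers had UMIs in every cluster. Cluster sizes differed between libraries: the Kdelr2 cluster held 71 cOE and 759 control nuclei, the Iigp1 cluster 37 and 149, and the Otoa medial epithelium-like cluster 287 and 78. Levels are given as CPM, the UMIs of a gene scaled to the total of a group of nuclei, and Serpine2 itself stood at 86.2 CPM in the cOE library and 89.5 in the control library over all kept nuclei, so it was not higher there (log2 -0.05). It was at 241 and 193 CPM in the supporting cell-like class (0.32, -0.01 to 0.66). In outer hair cell-like nuclei it was at 40.2 and 23.8, from 57 and 26 UMIs. That difference was past 1.5-fold with a counting interval that left out equality. The Lum mesenchymal-like cluster passed the same rule the other way, at 153.7 and 252.0 CPM from 52 and 55 UMIs (-0.71, -1.29 to -0.14). Its nuclei had an unusually low depth, with medians of 814 and 831 UMIs.

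The 7 genes together gave 23221 UMIs in the cOE library and 19411 in the control library. Over all kept nuclei there were 1336 and 683 UMIs of Rspo2, 146 and 153 of Rspo3, 4448 and 3776 of Lgr4, 2481 and 1986 of Lgr5, 1053 and 1038 of Lgr6, 6643 and 6172 of Rnf43, and 7114 and 5603 of Znrf3, with the cOE library first. A gene was called for a cluster when its CPM there was at least 2-fold that of all other kept nuclei in both libraries, with at least 20 UMIs. All 7 genes had such a call in at least 1 cluster, which 54.5% of all measured genes also had. Of 203 pairs of a gene and a cluster, 127 had at least 20 UMIs and 15 were called, beside 7.14% of such pairs over all genes. The plot of levels by cluster shows that each gene had its own leading cluster, except that Lgr5 and Znrf3 shared one.

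**Figure D1:**
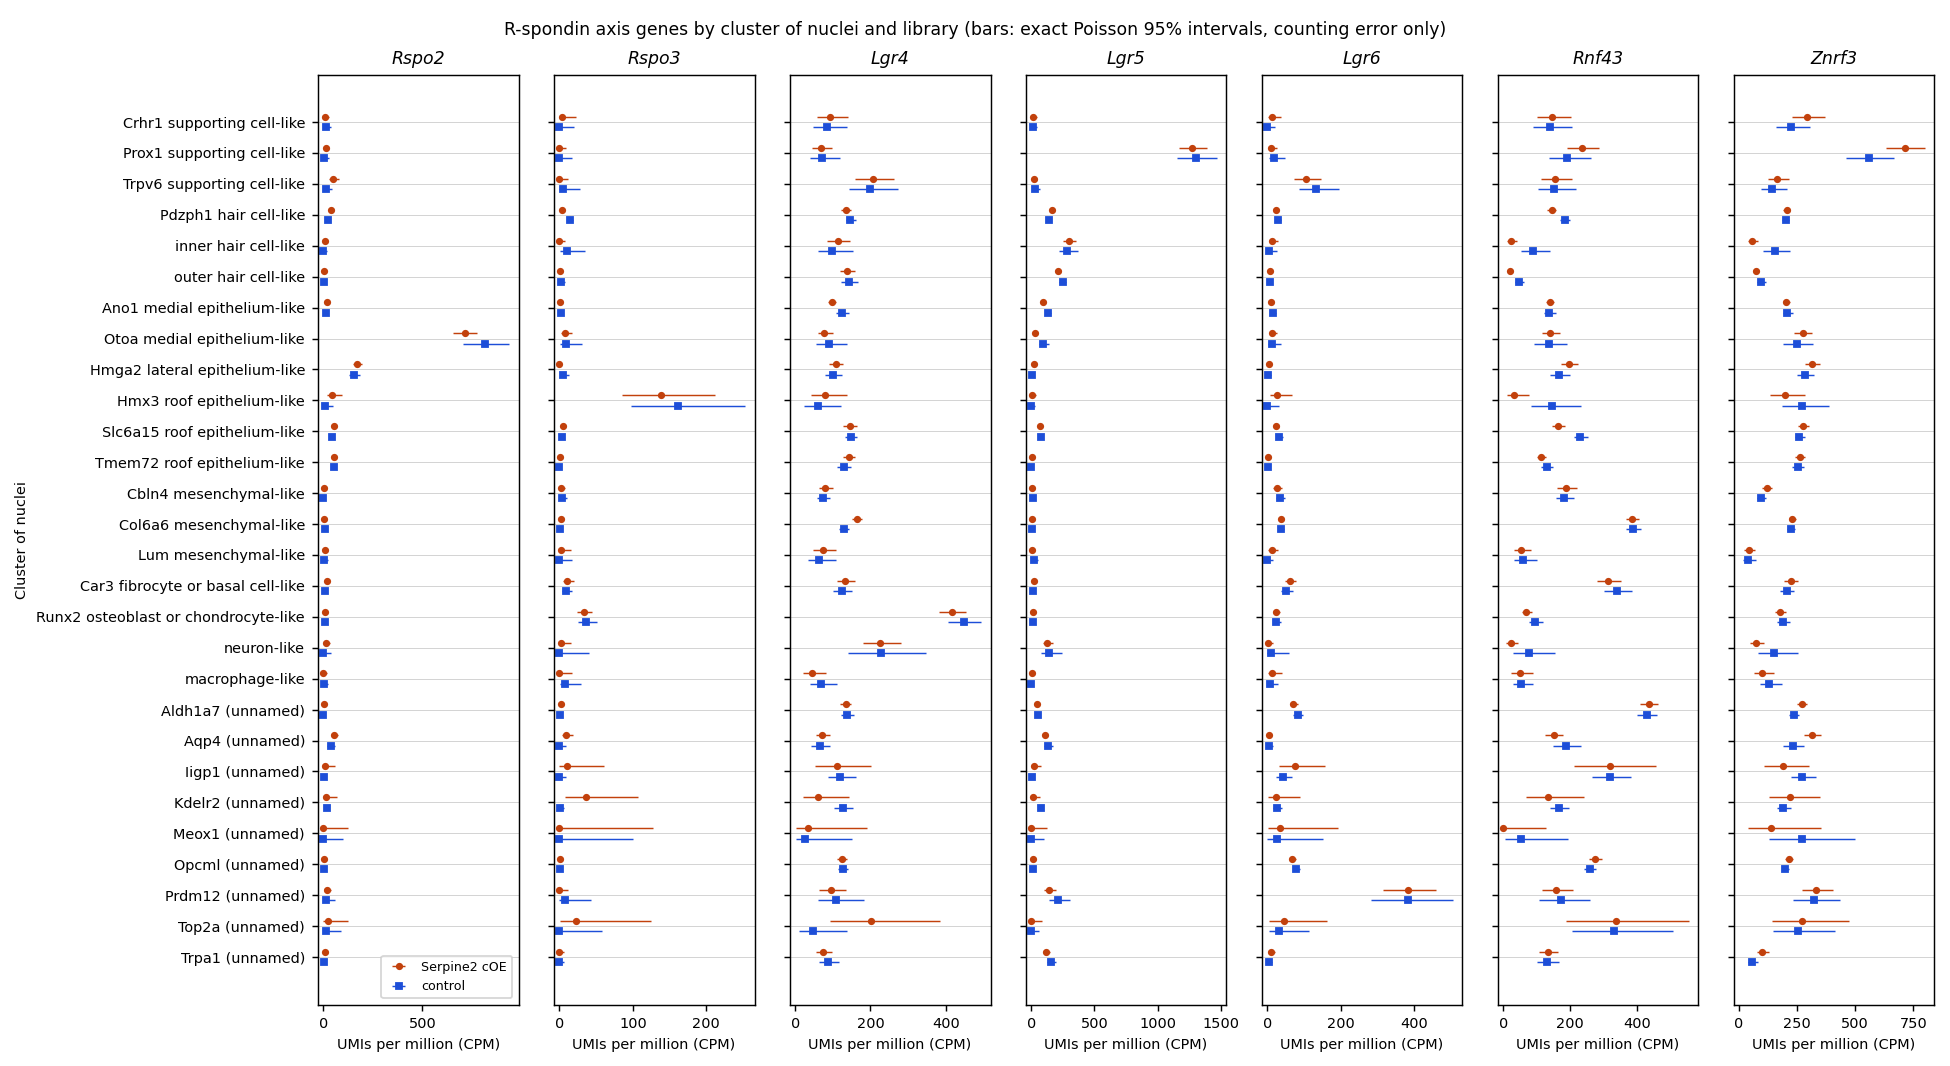
CPM (x axis, linear, a scale of its own for each gene) in the reported clusters of nuclei (y axis) for the cOE library (circles) and the control library (squares), with exact Poisson 95% intervals. Rspo2 stands apart in the Otoa cluster, Lgr5 in the Prox1 cluster, Lgr6 in the Prdm12 cluster and Lgr4 in the Runx2 cluster, in both libraries.

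Rspo2, a ligand, was highest in the Otoa medial epithelium-like cluster, named for otoancorin, which attaches the tectorial membrane to interdental cells. It reached 713.8 CPM (95% interval 655 to 776) in the cOE library and 813.6 (702 to 938) in the control library, from 551 and 191 UMIs. These ranges did not overlap those of any other cluster, and the mean of both libraries was 4.7-fold that of the next cluster. That next cluster was the Hmga2 lateral epithelium-like cluster, with 170.5 and 154.1 CPM. Both clusters passed the 2-fold rule.

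Below them Rspo2 was at 53.9 and 52.9 CPM in the Tmem72 roof epithelium-like cluster and at 19.1 and 11.7 in the Ano1 medial epithelium-like cluster. So the 2 medial clusters differed widely in this ligand. In the Prox1 supporting cell-like cluster only 5 and 1 UMIs were counted. In the Otoa cluster 39.9% of cOE nuclei (34.2 to 45.9, Clopper-Pearson) and 48.1% of control nuclei (36.5 to 59.7) held an Rspo2 UMI after each nucleus was thinned to 1000 UMIs, against 57.5% and 64.1% unthinned. In macrophage-like nuclei, taken as a cell type that should lack the epithelial members, the thinned shares were 0 of 108 and 1 of 134 nuclei. The share in the Otoa cluster was thus above this background, at equal depth.

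Rspo3, the other ligand, was the scarcest of the 7 in UMIs and had a different place. It led in the Hmx3 roof epithelium-like cluster, with 138.4 CPM (85.7 to 212) in the cOE library and 161.9 (97.5 to 253) in the control library, from 21 and 19 UMIs in 47 and 34 nuclei. The Runx2 osteoblast or chondrocyte-like cluster followed with 33.0 and 36.8 CPM, a 4.3-fold step. Both passed the 2-fold rule in both libraries.

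No Rspo3 UMI was found in the Prox1 cluster of either library. At this depth, by a limit of 3 counts, 0 of 61 cOE nuclei allows a share of up to 4.92% of nuclei with a UMI, and 0 of 31 control nuclei up to 9.68%.

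Rspo1 and Rspo4, the remaining members of the ligand family, were looked at beside them. Rspo1 gave 411 and 380 UMIs and was highest in the Col6a6 mesenchymal-like cluster, at 45.3 and 40.9 CPM. Rspo4 gave 4 and 7 UMIs over all kept nuclei, too few to place. Each of the 3 measurable R-spondin ligands thus had a different leading cluster.

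Lgr4, the most widely expressed of the receptors in many tissues, was highest in the Runx2 cluster. Runx2 is the main transcription factor of bone formation. Lgr4 stood there at 417.2 CPM (382 to 455) and 449.1 (407 to 494), from 519 and 415 UMIs, 1.9-fold above the neuron-like cluster at 226 and 228. The neuron-like cluster held only 43 cOE and 9 control nuclei. Next was the Trpv6 supporting cell-like cluster at 205.5 and 199.7 CPM. Further down the order was mostly not resolved, because the ranges of most neighbouring clusters overlapped.

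Lgr4 was counted broadly, at unequal levels. It was at 137.6 and 142.6 CPM in outer hair cell-like nuclei, at 112 and 98.7 in inner hair cell-like nuclei, and at 67.5 and 72.1 in the Prox1 cluster, below its level of 137.8 and 139.5 over all kept nuclei. The Prox1 cluster was thus high in Lgr5 and low in Lgr4. Macrophage-like nuclei had 45.2 and 69.2 CPM, from 10 and 17 UMIs. After thinning, 32.3% and 31.9% of Runx2 nuclei held an Lgr4 UMI.

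Lgr5, the stem cell marker among the receptors, had its peak in the Prox1 supporting cell-like cluster, which carries markers of pillar and Deiters cells. It was at 1276 CPM (1167 to 1391) in the cOE library and 1307 (1157 to 1472) in the control library, from 510 UMIs in 61 nuclei and 272 UMIs in 31 nuclei. The ratio of cOE to control was -0.04 on the log2 scale (-0.25 to 0.18), a difference within counting error. The mean was 4.4-fold that of the next cluster.

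Inner hair cell-like nuclei came next with 300.5 and 286.2 CPM, and outer hair cell-like nuclei followed with 209.5 and 247.8. The third hair cell-like cluster, marked by Pdzph1, had 163 and 137.5 CPM and an unusually high depth, with medians of 16812 and 14998 UMIs. These 4 clusters held all the Lgr5 calls, and 3 of them were hair cell-like. The median depths were 5622 and 4813 UMIs in the Prox1 cluster, 6267 and 7781 in the inner hair cell-like cluster, and 4984 and 5464 in the outer hair cell-like cluster.

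Supporting cell markers were counted in the hair cell-like nuclei as well, and their part in these Lgr5 levels was not tested. In inner hair cell-like nuclei the supporting list summed to 386 CPM in the cOE library, with 11 of 13 markers present and Ngfr and Hes5 at 0. In the control library it summed to 592 CPM, with 9 of 13 present and Sox2, Fabp7, Ngfr and Hes5 at 0. In outer hair cell-like nuclei it summed to 401 and 339 CPM, and in the Prox1 cluster to 5553 and 5922. In the Pdzph1 cluster it summed to 1101 and 861 CPM.

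The supporting cell-like clusters were themselves unequal in Lgr5. The Trpv6 cluster had 22.1 and 30.7 CPM, and the Crhr1 cluster 16.7 and 16.8 from 4 and 3 UMIs. Among medial and unnamed clusters, the Prdm12 cluster had 144 and 211 CPM, the Trpa1 cluster 117 and 155, the Aqp4 cluster 110 and 134, and the Ano1 medial epithelium-like cluster 92.6 and 136.8. From the outer hair cell-like cluster down to the Ano1 cluster, each neighbouring range overlapped the next, so their order was not resolved. Mesenchymal-like nuclei had 5.12 and 6.87 CPM.

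After thinning to 1000 UMIs, 80.3% of cOE nuclei and 67.7% of control nuclei in the Prox1 cluster held an Lgr5 UMI. Unthinned, 91.8% and 93.5% did. The outer hair cell-like shares were 16.0% (11.7 to 21.1) and 21.5% (15.8 to 28.3) after thinning. Macrophage-like nuclei, with median depths of 1534 and 1535 UMIs, gave 0.926% and 0%, from 1 of 108 and 0 of 134 thinned nuclei. The outer hair cell-like share lay above that background in both libraries. The plot of thinned shares shows this for the 6 more abundant genes.

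**Figure D2:**
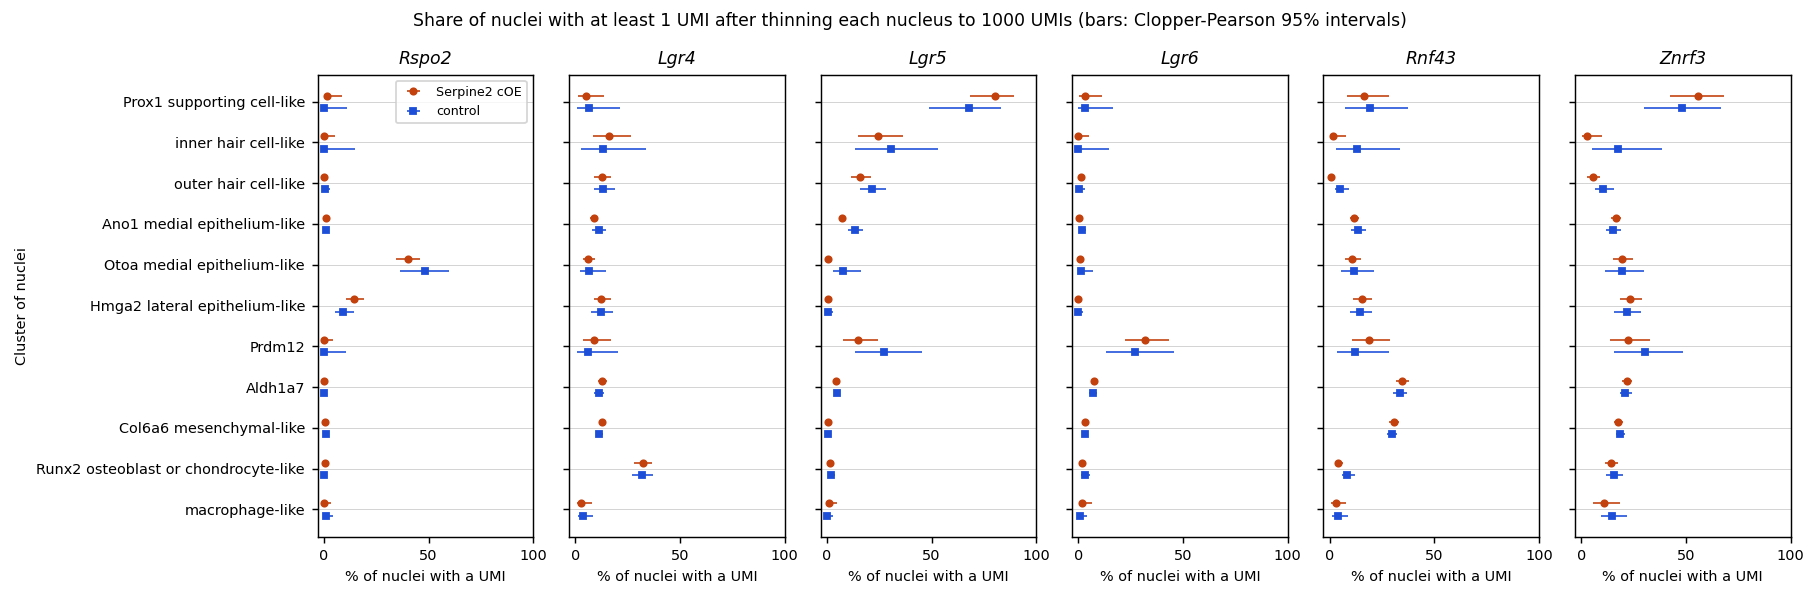
Percent of nuclei with at least 1 UMI (x axis) after thinning every nucleus to 1000 UMIs, for selected clusters (y axis) in the cOE library (circles) and the control library (squares), with Clopper-Pearson 95% intervals. Lgr5 reaches 80.3% and 67.7% in the Prox1 cluster and 0.926% and 0% in macrophage-like nuclei, whereas Znrf3 stays at 11.1% and 14.9% in macrophage-like nuclei.

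Lgr6, the third receptor, peaked in the unnamed Prdm12 cluster of 81 cOE and 33 control nuclei. It was at 382.1 CPM (315 to 459) and 382.9 (283 to 506), from 114 and 49 UMIs, which is 3.2-fold the next cluster. The Prdm12 cluster carried 5 of the 13 supporting cell markers (Sox2, Hey2, Lfng, Emid1 and Fabp7). It also carried 4 markers of the medial epithelium list, and it did not meet the rule for a name. Sox2 is a transcription factor of sensory progenitors and supporting cells, and Hey2 and Lfng belong to the Notch pathway. After thinning, 32.1% (22.2 to 43.4) and 27.3% (13.3 to 45.5) of its nuclei held an Lgr6 UMI.

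The Trpv6 supporting cell-like cluster was next for Lgr6, with 104 and 133 CPM. The Aldh1a7 and Opcml clusters, both unnamed, followed with 71.2 and 83.5 CPM and with 67.4 and 79.2 CPM. These 4 clusters made up all the Lgr6 calls. Outer hair cell-like nuclei had 7.06 and 6.40 CPM, and the Pdzph1 hair cell-like cluster 23.5 and 30.7, against 32.6 and 38.4 over all kept nuclei. The 3 receptors therefore led in 3 different clusters, and within the supporting cell-like class Lgr5 led in the Prox1 cluster whereas Lgr4 and Lgr6 led in the Trpv6 cluster.

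Rnf43, a ligase, was highest in the Aldh1a7 cluster at 436 CPM (410 to 463) and 430, from 1066 and 844 UMIs. The Col6a6 mesenchymal-like cluster had 386 and 390 CPM, and the Car3 fibrocyte or basal cell-like cluster 315 and 342. The mesenchymal-like clusters were unequal, since Cbln4 nuclei had 189 and 183 CPM and Lum nuclei 53.2 and 59.6. Lum nuclei had an unusually low depth, with medians of 814 and 831 UMIs, and its part in their Rnf43 level was not tested. Rnf43 had no single peak, as the leading cluster was 1.1-fold the next. Only the Aldh1a7 cluster passed the 2-fold rule. In the Prox1 cluster Rnf43 had 235 and 192 CPM.

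Outer and inner hair cell-like nuclei lay near the other end for Rnf43, with 19.8 and 47.5 CPM and with 22.5 and 88.8, whereas the Pdzph1 hair cell-like cluster was at 145 and 185. Macrophage-like nuclei had 49.7 and 52.9. The share of nuclei with an Rnf43 UMI after thinning was 34.7% and 33.7% in the Aldh1a7 cluster. In outer hair cell-like nuclei it was 1 of 256 and 9 of 181 nuclei.

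Znrf3, the other ligase, led in the Prox1 cluster, where Lgr5 also led. It was at 712.8 CPM (632 to 801) in the cOE library and 557.6 (461 to 669) in the control library, from 285 and 116 UMIs, 1.9-fold the next cluster. This was its only call. The Prdm12 cluster followed at 332 and 320 CPM, the Hmga2 cluster at 314 and 283, and the Aqp4 cluster at 314 and 230. Outer hair cell-like nuclei, the neighbours of Deiters cells in the tissue, had 71.3 and 94.2 CPM.

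Macrophage-like nuclei had 99.4 and 130 CPM of Znrf3, and 11.1% and 14.9% of them held a UMI after thinning, against 55.7% and 48.4% in the Prox1 cluster. Znrf3 was therefore counted broadly. Both ligases were low in outer hair cell-like nuclei compared with the supporting cell-like Prox1 cluster in both libraries.

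Across 24 clusters with at least 30 nuclei in each library, taken per library as 48 points, the likeness of profiles was described by Pearson's r of log2(CPM + 1). Points of 1 library share depth and free RNA, and the paired points of a cluster are not independent. Among the 7 genes the pair most alike was Rnf43 and Znrf3 (r = 0.53), followed by Lgr6 and Rnf43 (0.43). Lgr5 and Znrf3 had r = 0.19 although both led in the Prox1 cluster, and the lowest value was that of Lgr5 and Rspo3 (-0.31).

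The 3 genes most like each member were named from 14483 genes. For Lgr5 they were A930009A15Rik (0.86), Pcdh11x (0.78) and Nxpe3 (0.77). A930009A15Rik lies opposite Lgr5 on the other strand in GENCODE M39. For Rnf43 they were Gli3 (0.82), a transcription factor of Hedgehog signalling, Gk5 (0.81) and Axin2 (0.77), the feedback gene commonly used as a Wnt readout. For Znrf3 they were Metap1d (0.77), Ubr1 (0.73) and Gm20089 (0.72).

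For Rspo2 they were Smoc1, Lemd1 and Map4k3, all at 0.79. For Lgr4 they were Slc8a3 (0.76), a sodium-calcium exchanger, Htr1f (0.75) and Musk (0.74). For Lgr6 they were B230216N24Rik (0.71), Rftn2 (0.70) and Grm7 (0.70). Rspo3, with few UMIs, had the weakest matches, A630012P03Rik (0.68), Gpr108 (0.65) and Cdc42ep3 (0.61).

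In GRCm39 coordinates with GENCODE M39, Lgr4 (ENSMUSG00000050199) spans chromosome 2 from 109747839 to 109844609 on the plus strand. Lgr5 (ENSMUSG00000020140) spans chromosome 10 from 115286216 to 115423685 on the minus strand. Lgr6 (ENSMUSG00000042793) spans chromosome 1 from 134911039 to 135033100 on the minus strand, with Gm10535 opposite. Rspo2 (ENSMUSG00000051920) spans chromosome 15 from 42877439 to 43034706, and Rspo3 (ENSMUSG00000019880) chromosome 10 from 29327285 to 29411876, both on the minus strand, the latter with Gm48159 opposite. Rnf43 (ENSMUSG00000034177) spans chromosome 11 from 87553548 to 87626377 on the plus strand and overlaps 1110028F11Rik on the same strand. Znrf3 (ENSMUSG00000041961) lies on the same chromosome from 5226324 to 5394939 on the minus strand. Where genes overlap, reads of the partner could have been counted, and each whole gene is the unit here.

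The supporting cell-like class joined the Prox1, Trpv6 and Crhr1 clusters, and its nuclei were split by whether they held an Lgr5 UMI. In the cOE library 65 nuclei had one and 100 did not, and in the control library 35 and 61. The nuclei with a UMI were deeper, with medians of 5878 against 4477.5 UMIs in the cOE library and 4878 against 4470 in the control library. Of the nuclei with a UMI, 56 and 29 belonged to the Prox1 cluster, so this split largely follows the clusters, and only 5 and 2 nuclei of the Prox1 cluster had none.

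Znrf3 was at 645.8 CPM in cOE nuclei with an Lgr5 UMI and 230.1 in those without, and at 459.5 and 194.4 in the control library. Rnf43 was at 235.2 and 142.8 in the cOE library and at 186.8 and 143.4 in the control library. The intervals of Znrf3 did not overlap in either library, and those of Rnf43 overlapped in the control library. Lgr4 went the other way, with 79.9 against 154.7 CPM in the cOE library and 108.3 against 127.5 in the control library, where the intervals overlapped. Lgr6 had opposite orders in the libraries, 15.5 against 65.5 and 78.5 against 28.7 CPM.

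Outside the supporting cell-like class the Znrf3 difference was smaller. In the Ano1 cluster Znrf3 was at 231 CPM in cOE nuclei with an Lgr5 UMI and 189 in those without, and at 219.6 and 197.2 in the control library. In outer hair cell-like nuclei the order of Znrf3 differed between libraries, 82.2 against 51.4 CPM in the cOE library and 90.5 against 105 in the control library.

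**Figure D3:**
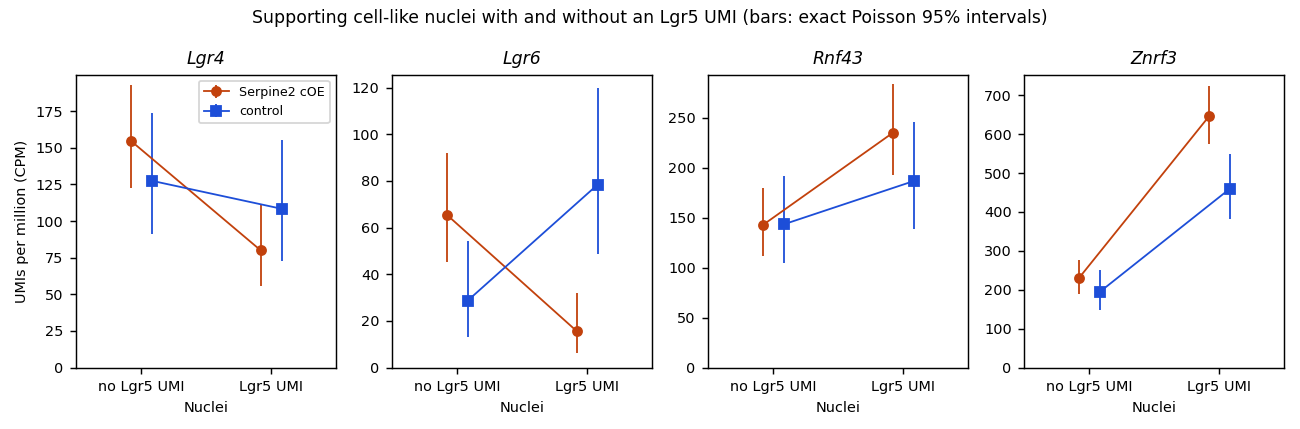
CPM (y axis, linear from 0) of Lgr4, Lgr6, Rnf43 and Znrf3 in supporting cell-like nuclei without and with an Lgr5 UMI (x axis), in the cOE library (circles) and the control library (squares), with exact Poisson 95% intervals. Znrf3 is at 645.8 with and 230.1 without an Lgr5 UMI in the cOE library and at 459.5 and 194.4 in the control library, while Lgr6 has opposite orders in the libraries.

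The comparison of the cOE library with the control library asked whether the axis differed in pups carrying the Lgr5EGFP-CreER driver. A gene was called when its CPM differed by at least 1.5-fold, its exact interval left out 0 on the log2 scale and it had at least 20 UMIs. Of the 127 measured pairs of a gene and a cluster 9 were called, 1 higher and 8 lower in the cOE library, beside 7.68% of pairs over all genes. The members' share of called pairs was close to that background. Of the 127 ratios 59 were above 0.

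Over all kept nuclei 1 of the 7 genes, Rspo2, was called, beside 7.8% of all genes. The members' median log2 ratio was -0.02 and that of all measured genes 0.00. Rspo2 was at 41.4 CPM in the cOE library and 25.2 in the control library, a log2 ratio of 0.71 (0.58 to 0.85). In such sums over mixed nuclei, fewer cells of a type and less RNA per cell cannot be told apart. The Otoa cluster, the main source of Rspo2, held 2.94% of cOE nuclei and 0.95% of control nuclei, and 41.2% and 28.0% of the Rspo2 UMIs.

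Within the Otoa cluster Rspo2 did not lean the same way (-0.19, -0.43 to 0.06). With each cluster given the same share of UMIs in both libraries, Rspo2 was at 35.2 and 32.0 CPM, a log2 ratio of 0.14. Without the Otoa cluster it was at 24.9 and 18.3 CPM, a log2 ratio of 0.44 (0.28 to 0.61). The pooled ratio of Rspo2 was thus far smaller once cluster sizes were equalised. For Lgr5 the pooled ratio was 0.07 and that at equal shares -0.13, for Znrf3 0.09 and 0.07, and for Rnf43 -0.15 and -0.09.

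In the supporting cell-like class 0 of the 6 measured members were called, beside 6.4% of all genes. Their median log2 ratio was 0.18 and that of all measured genes 0.01. Znrf3 had the highest ratio with a narrow interval, at 426 and 316 CPM (log2 0.43, 0.18 to 0.69), below the 1.5-fold rule. In the Prox1 cluster alone it was 0.35 (0.04 to 0.68). Lgr5 in the class was at 545 and 483 CPM (0.18, -0.04 to 0.39), and Rnf43 at 186 and 163 (0.19, -0.18 to 0.57), both within counting error. Without the nucleus with most Lgr5 UMIs in each library the Lgr5 ratio was 0.36 (0.13 to 0.60). The Prox1 cluster held most Lgr5 UMIs of the class. It made up 399812 of 955207 class UMIs in the cOE library and 208045 of 581681 in the control library. Within it Lgr5 was at 1276 and 1307 CPM, and the ratio without the top nucleus was 0.10 (-0.13 to 0.35). The class ratio of Lgr5 thus also carries this unequal share. Supporting markers in the Prox1 cluster differed little between libraries (log2 -0.09).

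Hair cell-like clusters held 4 of the 9 calls, all lower in the cOE library. In the outer hair cell-like cluster Rnf43 was called, beside 6.91% of genes, with 28 cOE and 52 control UMIs and a log2 ratio of -1.27 (-1.98 to -0.58). Znrf3 leaned the same way there without a call (-0.40). The summed supporting list moved by 0.24 and the mesenchymal list by -0.04 in the outer hair cell-like cluster, and their part in the Rnf43 ratio was not tested.

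In the inner hair cell-like cluster both ligases were called, beside 10.9% of genes. Rnf43 had 11 and 18 UMIs and a log2 ratio of -1.98 (-3.21 to -0.82), and Znrf3 28 and 31 UMIs and -1.42 (-2.21 to -0.63). This cluster held 69 cOE and 23 control nuclei. Its supporting list differed by -0.62, its medial list by -0.33 and its mesenchymal list by -0.06 between libraries, and the part of these in the ligase ratios was not tested. Lgr5 differed by only 0.07 and Lgr4 by 0.19 in the same nuclei.

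Over the whole hair cell-like class, where 8.15% of genes were called, Rnf43 was at 97.8 and 148.9 CPM (-0.61, -0.78 to -0.44). In the third cluster of the class, marked by Pdzph1, it was at 145 and 185 (-0.35), without a call. The Pdzph1 cluster held 6.80% and 10.2% of all Rnf43 UMIs, beside 0.42% and 0.84% in the outer hair cell-like cluster. It held 3111575 of 5018289 class UMIs in the cOE library and 3416969 of 4713359 in the control library. The class ratio of Rnf43 thus also carries this unequal share. Rspo3 was also called in this class, with 13 and 53 UMIs (-2.12). Most of the Rspo3 difference came from the Pdzph1 cluster, with 12 and 48 UMIs (-1.86), 19 of them in a single control nucleus, and with the highest nucleus left out in both libraries it was -2.14 (-3.70 to -0.85).

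In medial epithelium-like nuclei Lgr5 leaned lower in the cOE library. Over the class, where 8.35% of genes were called, it was at 81.2 and 131.6 CPM (-0.70, -0.94 to -0.46). In the Ano1 cluster, with 7.73% of genes called, Lgr5 was at 92.6 (82.6 to 103) and 136.8 CPM (-0.56, -0.81 to -0.31), just short of the 1.5-fold rule, which it passed (-0.59) without the nucleus with most Lgr5 UMIs in each library. No member was called there. In the Otoa cluster, with 8.86% of genes called, it was at 31.1 and 93.7 CPM from 24 and 22 UMIs (-1.59, -2.49 to -0.69).

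The thinned share of nuclei with an Lgr5 UMI in the Ano1 cluster was 7.17% in the cOE library and 13.3% in the control library, intervals that did not overlap. In the Otoa cluster markers of hair cells (-0.59), of supporting cells (-0.14) and of medial epithelium (-0.40) were also lower in the cOE library, and their part in the Lgr5 ratio was not tested. The roof epithelium-like class, with 13.8% of genes called, had 29.8 and 47.5 CPM of Lgr5 (-0.67) and 12.2 and 20.6 of Lgr6 (-0.76), both called. Most of these UMIs came from the Slc6a15 cluster, 118 of 127 and 172 of 175 for Lgr5 and 41 of 52 and 72 of 76 for Lgr6, and within it neither gene was called (-0.26 and -0.53), so the class ratios also carry the cluster's unequal share. The Slc6a15 cluster had an unusually high depth, with medians of 8402 and 10494.5 UMIs. The lower Lgr5 was thus seen within both medial clusters, and not in the pooled supporting cell-like class, where the Prox1 cluster's share was unequal. The lower Lgr5 was not particular to the medial clusters, since only 8 of the 20 measured Lgr5 ratios by cluster were above 0. Lgr5 was also lower, without a call, in the Trpa1 cluster (117 and 155 CPM) and in outer hair cell-like nuclei (209.5 and 247.8), among others.

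**Figure D4:**
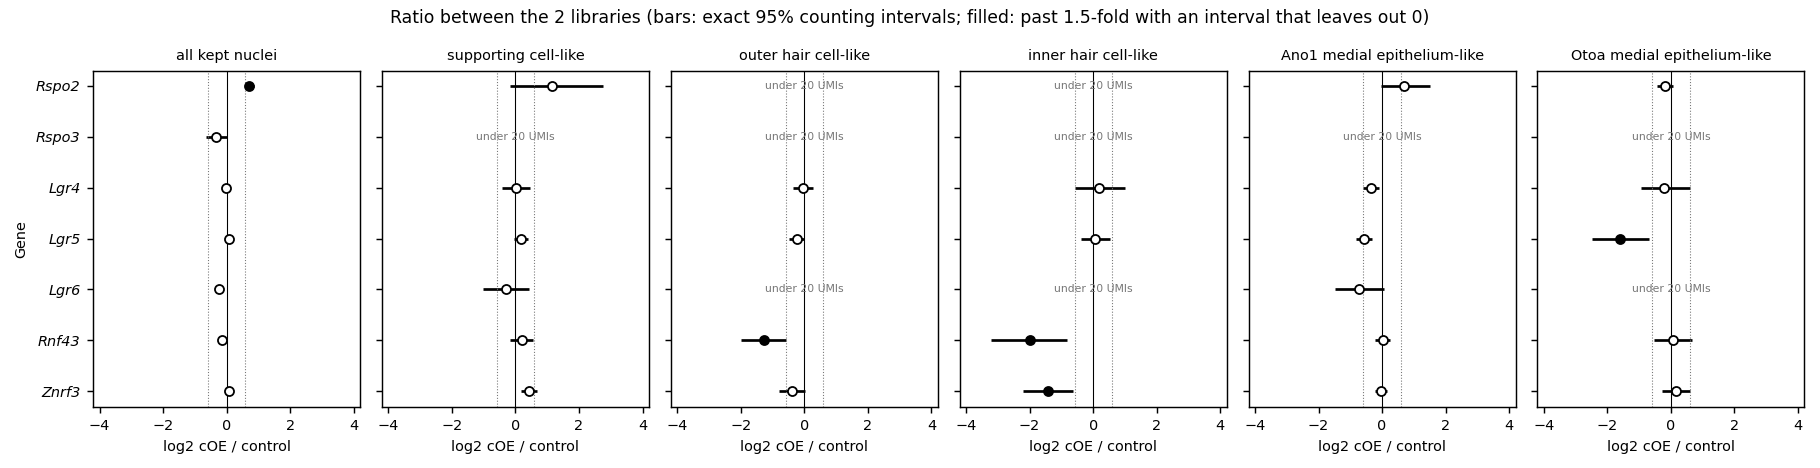
Log2 ratio of CPM in the cOE library over the control library (x axis) for the 7 genes (y axis) over all kept nuclei and in 5 groups of nuclei, with exact 95% counting intervals, filled points being called and dotted lines marking 1.5-fold. Rspo2 is called over all nuclei, Rnf43 in both hair cell-like clusters, Znrf3 in the inner one and Lgr5 in the Otoa cluster.

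The other calls were scattered. Znrf3 in the Trpa1 cluster was the only higher one (0.80, 0.15 to 1.48), with 64 and 30 UMIs. Lgr5 in the Kdelr2 cluster had 1 cOE and 61 control UMIs (-2.59, -7.92 to -0.06), in 71 and 759 nuclei. Rnf43 in the Hmx3 cluster had 5 and 17 UMIs (-2.14, -3.93 to -0.64). Znrf3 in the neuron-like cluster was at -1.09 with 25 and 14 UMIs, and at -0.12 without its top nucleus.

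The classes were also drawn by marker counts alone, without clustering. A nucleus entered a gate when it held at least 3 markers of 1 list with a lead of at least 2 over any other list, which left 4010 cOE and 3172 control nuclei ungated. The supporting cell gate held 93 and 58 nuclei, of which 95 lay at the edge of the rule, with a median of 6 supporting markers and 3 of the next list. Lgr5 was at 476 and 421 CPM there (0.18) and Znrf3 at 419 and 302 (0.47, 0.11 to 0.84), both in the order of the clustered class. By single cluster Lgr5 was not higher in the cOE library. It was at 1276 and 1307 CPM in the Prox1 cluster, 22.1 and 30.7 in the Trpv6 cluster and 16.7 and 16.8 in the Crhr1 cluster. Rspo2 did not keep the order of the class, with 10.1 and 64.2 CPM from 5 and 20 UMIs, against 23.0 and 10.3 CPM in the clustered class.

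In the hair cell gate of 473 and 440 nuclei Rnf43 was at 96.2 and 144.3 CPM (-0.59), near its ratio in the clustered class. In the medial epithelium gate Rspo2 was at 116 and 65.8 CPM (0.82), with 135 and 39 UMIs. Of the nuclei in that gate 66.0% belonged to the Ano1 cluster, and the part of the mix of nuclei in this ratio was not tested. By cluster Rspo2 was at 713.8 and 813.6 CPM in the Otoa cluster and at 19.1 and 11.7 in the Ano1 cluster. In the mesenchymal gate Rnf43 was at 300 and 290 CPM. The macrophage gate of 83 and 88 nuclei held no Lgr5 UMI in either library.

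The wider Wnt pathway was read from a list of 73 genes ordered by role, without the 7 members. Over all kept nuclei 60 of them had at least 20 UMIs and 2 were called, beside the 7.8% background. These were Sfrp5, a secreted Wnt inhibitor, which was higher, and Fzd10, a Frizzled receptor, which was lower in the cOE library; they are named after their values were seen. None of the 11 measured Wnt ligands, 14 transducers and 8 targets was called. The median log2 ratio was -0.19 for the targets and 0.25 for the 11 measured inhibitors.

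In the supporting cell-like class 40 genes of the list were measured and 7 were called, 2 higher and 5 lower, beside the 6.4% of all genes. Notum, an enzyme that inactivates Wnt ligands, was higher with 40 and 12 UMIs (1.02, 0.06 to 2.09). Lef1, a partner of beta-catenin and a Wnt target, was higher with 67 and 24 UMIs (0.77, with an interval from 0.07 up). Both intervals reached close to 0. Over all kept nuclei Notum was higher as well (0.44, 0.38 to 0.51), without passing 1.5-fold, whereas Lef1 was lower (-0.15).

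Of the lower genes Tcf7l1, a mostly repressing partner of beta-catenin, had the most UMIs, 121 and 112 (-0.60, -0.99 to -0.22). Axin1, a scaffold of the beta-catenin destruction complex, had 41 and 41 UMIs (-0.72). The ligand Wnt4 (-1.42), the receptor Ror2 (-1.52) and Dkk3 (-1.30) had 15 UMIs or fewer in each library. The intervals of Axin1, Wnt4 and Dkk3 also reached close to 0. The lower genes came from 4 of the roles, and Lef1 was the only target called in the class. Over all kept nuclei Ror2 (-0.41), Dkk3 (-0.29), Axin1 (-0.12) and Tcf7l1 (-0.10) were lower too, without a call, and Wnt4 was higher (0.30).

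For some of the more abundant genes of the list the leading cluster was also that of a member. Notum (832 and 538 CPM) and Nkd1 (1298 and 1470 CPM), both Wnt feedback genes, led in the Aldh1a7 cluster, where Rnf43 led. Wnt5a, a ligand of non-canonical signalling, led in the Car3 cluster at 305 and 244 CPM. Wnt4 and the inhibitor Dkk2 led in the Tmem72 roof epithelium-like cluster, Wnt4 at 151 and 174 CPM and Dkk2 at 2393 and 1870 CPM. By the mean of the libraries the coreceptor Lrp6 led in the Otoa cluster, where Rspo2 led, at 290 and 349 CPM, although in the cOE library the Tmem72 cluster was higher at 304. The receptor Ror1 led in the Hmx3 cluster, where Rspo3 led, at 1839 and 1824 CPM.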

How the data were processed

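The authors deposited, per the labels' protocols and the file headers, 1 gene-by-barcode matrix of raw UMI counts per pooled library (10x Genomics 3' v3.1 chemistry, Cell Ranger 8.0.1). The submitters' processing notes name Cell Ranger, STAR and mm10, whereas the design text names GRCm39; gene coordinates here come from GRCm39 with GENCODE M39, where 33185 of 33696 gene IDs were found. Whether introns were counted is not given in the sources used here.

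From the counts, nuclei with at least 500 genes and at most 5% mitochondrial UMIs were kept. The automatic cut-off of Scrublet flagged 23.9% of the filtered nuclei as doublets in the cOE library but 0% in the control library, so the highest-scoring 0.8% per 1000 deposited barcodes were removed instead (1040 and 703). Nuclei of both libraries were clustered together (scanpy 1.11.5, Leiden resolution 1, 3000 variable genes, 50 components) without the 7 members, the Wnt list, Serpine2, sex-linked, mitochondrial, ribosomal and haemoglobin genes, and clusters were named "X-like" from marker lists. UMIs were summed per library and cluster and divided by the cluster's total (CPM). Intervals are exact Poisson for levels, exact conditional binomial for ratios and Clopper-Pearson for shares, at 95%. Shares were computed after thinning to 1000 UMIs.

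The members and lists were chosen with earlier results of these data known. The text names all members, Serpine2, the 3 genes of most similar profile per member among genes with at least 200 UMIs, Rspo1, Rspo4, listed Wnt genes called in the supporting cell-like class, and genes from the 2 with most UMIs per role. The ratio code was checked on simulated counts. Alternatives were other gates, resolutions, filters, weights, thinning, edgeR 4.0.16 TMM factors and call rules. Python 3.11.15, scipy 1.17.1, numpy 2.4.6, matplotlib 3.10.9 and R 4.3.3 were used. For 1 unnamed cluster, which enters all counts, no values are reported here.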

Additional observations from a re-analysis of the deposited data

How the results depend on the processing

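No paired analysis was possible because the groups share only replicate number 1. The 15 calls of a gene for a cluster, of 127 measured pairs, became 3 of 33 when nuclei were grouped by per-nucleus marker gates, and under the other alternatives lay between 13 and 21. The 9 calls between libraries became 14 at Leiden resolution 2, 15 with each nucleus weighted equally, 3 (of 80 pairs) after thinning to 1000 UMIs, 5 with a minimum of 50 UMIs and 20 by the counting interval alone, and otherwise lay between 6 and 13. Leaving out the 4 clusters of unusual depth (Kdelr2, Lum, Slc6a15 and Pdzph1), an alternative chosen after seeing the data, gave 14 and 7. Rspo3 reversed with the marker gates: its mean log2 level in the roof gate over other nuclei was -2.09, against 5.09 for the Hmx3 cluster, and 92.9% of the nuclei in that gate belonged to the Tmem72 cluster. Of 76 other values of the class contrasts 75 kept their sign. These contrasts used each gene's leading cluster in the same data, so a kept sign was largely built in. Of the 76 values 51 lay within the counting interval of the main value, 24 lay outside it and 1 reversed. Of 56 values over all kept nuclei 53 kept their sign, and of 65 in the supporting cell-like class 58 did. Rspo2 in the supporting cell-like class went from 1.16 to -2.67 with the gate and to 3.48 without the deepest 5% of nuclei. Rspo3 over all nuclei went from -0.32 to 0.30 with equal weights. Rspo2 over all nuclei ranged from 0.64 to 0.95, and Znrf3 in the supporting cell-like class from 0.29 to 0.52. Its interval included 0 after thinning and without the deepest 5% of nuclei. TMM scaling moved all ratios by over 0.1 in the Kdelr2 (-0.20), Iigp1 (-0.16), Meox1 (-0.11) and neuron-like (0.20) clusters. It did so in the Top2a cluster too, with factors of 1.161 for the cOE library and 1.078 for the control library. Depth limits Rspo3 most, with 146 and 153 UMIs.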
